A study of Mus musculus with 40 samples.

Results

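The integrated stress response and the unfolded protein response were described in the left ventricle of Rbm20 knockout mice, through 35 genes chosen by symbol: 20 of the ATF4 arm, 11 of the endoplasmic reticulum (ER) arm and 4 of the mitochondrial chaperone arm. All 35 were found in both deposited gene tables, of 25462 genes for females and 24930 for males. Rbm20 encodes a splicing factor of striated muscle. The groups were Rbm20 knockout females, wildtype females, Rbm20 knockout males and wildtype males, all aged 10 weeks, with 5 mice in each and up to 2 sequenced libraries per mouse. The labels used here give neither the strain nor the construction of the knockout allele. The tissue was bulk left ventricle, in which fewer cells of a type and less RNA per cell cannot be told apart.

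The integrated stress response begins with kinases that phosphorylate the initiation factor eIF2. This slows general translation but favours translation of the transcription factor ATF4, whose targets import and make amino acids, charge tRNAs and send secreted signals. Crowding of the ER with unfolded proteins engages the sensors PERK (Eif2ak3), IRE1 (Ern1) and ATF6, and ATF6 and spliced XBP1 raise the ER chaperones. Mitochondrial stress reaches eIF2 through the protease OMA1, its substrate DELE1 and the kinase HRI (Eif2ak1), while mitochondrial HSP70 and the HSP60 and HSP10 chaperonin fold imported proteins. In heart muscle these responses are known from ischaemia, mitochondrial disease and cardiomyopathy. The assay here was RNA sequencing, so phosphorylation of eIF2, translation of Atf4 and splicing of Xbp1 were not measured.

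DNA elements through which these arms are known to be read were looked for in RefSeq promoter windows (GRCm38.p6, from 250 bases before to 50 bases after the annotated start), which were found for 33 of the 35 members. The ER stress response element, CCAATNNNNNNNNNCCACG on either strand, was matched in 5 of 11 ER members and in 37 of 27025 genes with a window (0.137%). These stretches are shown because they join ER members that fell (Hspa5 in both sexes and Canx in females) with members that did not pass the test (Hsp90b1, Calr and Pdia6). Each is written along its gene's strand, and capitals mark the match.
Hspa5, chr2:34772010-34772058, plus strand: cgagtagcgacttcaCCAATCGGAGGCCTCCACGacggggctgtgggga
Canx, chr11:50325785-50325833, minus strand: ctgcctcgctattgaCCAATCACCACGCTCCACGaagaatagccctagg
Hsp90b1, chr10:86705623-86705671, minus strand: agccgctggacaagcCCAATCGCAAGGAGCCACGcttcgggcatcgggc
Hsp90b1, chr10:86705518-86705566, minus strand: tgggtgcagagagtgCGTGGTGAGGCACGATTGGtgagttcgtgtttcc
Calr, chr8:84847060-84847108, minus strand: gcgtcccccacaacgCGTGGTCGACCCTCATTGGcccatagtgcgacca
Pdia6, chr12:17266476-17266524, plus strand: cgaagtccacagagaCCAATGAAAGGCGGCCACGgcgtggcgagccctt

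The C/EBP-ATF response element bound by ATF4 was searched as TGATGNAAN on either strand. It was matched in 7 of the 33 members, 6 of them among the 19 ATF4 members with a window and the other Herpud1, and in 1215 of 27025 genes (4.5%). No match of this element overlapped one of the ER element. The stretches shown are those of Chac1, which rose in females, of Herpud1, which fell in males, and of Asns, Pycr1 and Slc7a11, which did not pass in either sex. Fgf21 and Trib3 also held a match. Slc7a11 held a further match on the opposite strand, which begins in the last lower-case letters of its stretch and is not shown. A match describes these letters and not a bound site.
Chac1, chr2:119351033-119351071, plus strand: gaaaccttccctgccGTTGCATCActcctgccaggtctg
Herpud1, chr8:94386301-94386339, plus strand: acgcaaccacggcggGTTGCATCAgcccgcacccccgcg
Asns, chr6:7693210-7693247, minus strand: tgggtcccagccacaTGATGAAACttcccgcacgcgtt
Pycr1, chr11:120643828-120643866, minus strand: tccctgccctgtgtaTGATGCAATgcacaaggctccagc
Slc7a11, chr3:50443656-50443694, minus strand: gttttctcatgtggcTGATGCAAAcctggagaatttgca

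Levels below are normalised counts, that is reads divided by a size factor of the library, averaged over the libraries of a mouse. Mice carry the names of the labels, and values by mouse follow the order ko_f_95, ko_f_150, ko_f_151, ko_f_154 and ko_f_155 for knockout females, wt_f_140 to wt_f_144 for wildtype females, ko_m_97, ko_m_106, ko_m_127, ko_m_128 and ko_m_130 for knockout males and wt_m_112, wt_m_113, wt_m_124, wt_m_125 and wt_m_139 for wildtype males. Log2 changes are knockout over wildtype on log2(value + 1), with SE after ±, and a gene was called at an adjusted p under 0.05 by limma over all genes with a mean of at least 10. Of the members 34 were tested in each sex. Several members overlap other annotated genes. On the opposite strand these include Shmt2 (Ndufa4l2), Herpud1 (Gm15890), Ddit3 (Mars1), Atf5 (Nup62 and Il4i1) and Hsp90b1 (1810014B01Rik). On the same strand they include Mthfd2 (Gm43890), Hsp90b1 (Gm15344), Aldh18a1 (Gm15801) and Hspa9 (Gm26109 and Gm22200), which strand cannot separate. Calr has a listed pseudogene copy. Whether counting used strand is not given in the sources used here, so reads of such pairs may be mixed. Fgf21, a stress hormone, was not tested: it had 3 reads in knockout females and 1 in wildtype females, and 2 reads in knockout males and 0 in wildtype males.

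Libraries held 2351987 to 16973229 reads in genes. Rbm20 fell in both sexes, to 289 to 555 in knockout females, against 1001 to 1342 in wildtype females (log2 -1.52 ± 0.14), and to 221 to 308 in knockout males, against 795 to 894 in wildtype males (-1.63 ± 0.09). Cardiomyocyte markers were abundant in every mouse, and limma called none of 6 in either sex (2 lower at an unadjusted p under 0.05 in each), with a median log2 change of -0.14 in females and -0.25 in males. edgeR called 1 lower and DESeq2 2 lower in males. Of 6 fibroblast markers limma called 4 higher in females and 5 in males (edgeR 3 and 5, DESeq2 4 and 5). Their summed level was 18166 to 24666 in knockout females, against 13535 to 19299 in wildtype females. In knockout males it was 16871 to 19825, against 9671 to 15397 in wildtype males. Of 5 endothelial markers limma called 2 lower in females and 1 in males (edgeR 2 and 0, DESeq2 3 and 1). Over all genes limma called 5.28% higher and 5.51% lower in females, and 7.60% higher and 8.29% lower in males. None of 6 macrophage markers reached an unadjusted p under 0.05 by limma, edgeR or DESeq2. Of 5 adipocyte markers 2 rose in females, and of the 2 tested in males Fabp4 fell and none rose. Of 4 tested atrial markers the peptide Nppa rose in both sexes, and the myosin light chain Myl7 fell in males (-4.49 ± 1.18, limma adjusted p = 0.017), where edgeR and DESeq2 called 3 of the 4 lower. Single mice stood apart. Myl7 was 8051 in ko_f_151, 1223 in ko_f_154, 1416 in wt_f_144 and 692 in wt_m_112, and ko_f_151 also had the highest Igkc of the females, at 175 against 4.27 to 14 in the other 9. The hepatocyte gene Alb was 142.7 in ko_m_130, 7.08 in ko_m_127 and at most 0.498 in the other males. The part of these differences in the changes below was not tested, and values without the 4 mice of high Myl7 are given where they end a call. Among males only wt_m_112 is of these, so there the setting is the same fit as leaving out that mouse. The remaining wildtype males had Myl7 of 130 (wt_m_113), 42.4 (wt_m_124), 0 (wt_m_125) and 20.2 (wt_m_139), against 0.213 to 1.58 in knockout males.

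Calls in the ATF4 arm were mostly rises, and calls in the ER and mitochondrial arms were all falls. In the ATF4 arm, 3 of 19 tested members rose and 0 fell in females by limma, and 3 rose and 1 fell in males. Of the male rises, Gdf15 passed the filter of 10 through the knockouts, as its wildtype mean was 9.09. No ER member and no mitochondrial member was higher at an unadjusted p under 0.05 in either sex by limma, edgeR or DESeq2. In the female ATF4 arm 1 member was lower at an unadjusted p under 0.05 by limma; edgeR called 0 lower and DESeq2 called 1. Of the 11 ER members 2 fell in each sex, and of the 4 mitochondrial members 1 fell in females and 3 in males. Over all genes tested, 5.28% rose and 5.51% fell in females, and 7.60% rose and 8.29% fell in males. The median log2 change of the ATF4 arm was 0.27 in females and 0.12 in males, that of the ER arm -0.07 and -0.13, and that of the mitochondrial arm -0.11 and -0.25, where all genes had a median of 0.00 in each sex. Of the 34 members, 12 had a positive change in both sexes and 15 a negative one. The 12 called members included 3 that were called in both sexes, Atf4, Hspa5 and Hspa9. Neither this count nor that of shared signs was made over all genes, so no agreement beyond that of other genes is shown.

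**Figure D1:**
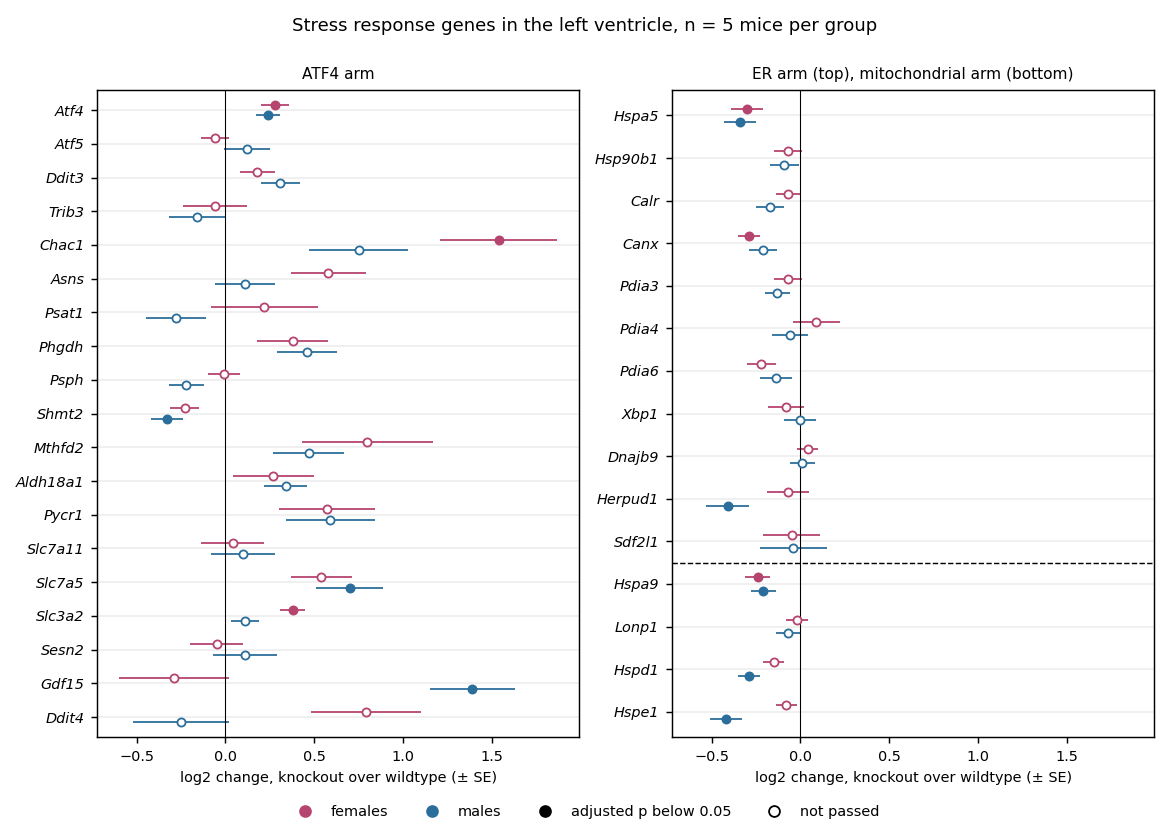
Log2 change, knockout over wildtype, of the 34 tested members in females and males, with bars of 1 SE from limma (n = 5 mice per group). Filled points passed an adjusted p of 0.05; among ATF4 members these lie between -0.33 and 1.54, while every filled point of the ER and mitochondrial arms is negative.

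Within single mice the arms kept these directions to different degrees. The median over the 19 ATF4 members, as a log2 deviation from the wildtype mean of the sex, was -0.01 to 0.48 in knockout females, against -0.13 to 0.17 in wildtype females, and 0.12 to 0.35 in knockout males, against -0.03 to 0.11 in wildtype males. The female groups overlapped through ko_f_150, which was the lowest knockout, and the male groups did not overlap. The median over the 4 mitochondrial members was -0.21 to -0.05 in knockout females, against -0.06 to 0.07 in wildtype females, and -0.34 to -0.18 in knockout males, against -0.01 to 0.03 in wildtype males. Here too the male groups did not overlap. The median over the ER members was -0.12 to 0.04 in knockout females, against -0.11 to 0.26 in wildtype females, and -0.22 to -0.04 in knockout males, against -0.11 to 0.14 in wildtype males, and overlapped in each sex.

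**Figure D2:**
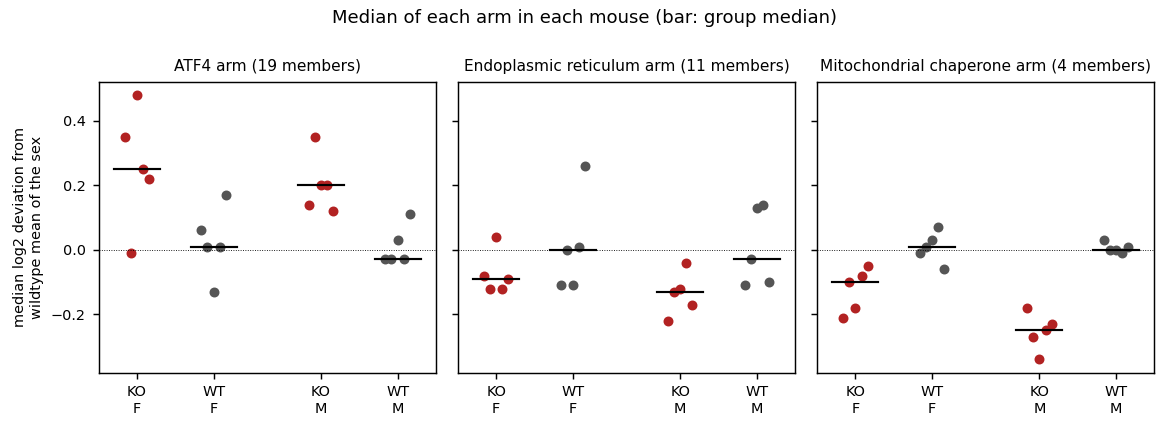
Median over the tested members of each arm in each mouse, as a log2 deviation from the wildtype mean of the same sex; points are mice (5 per group) and bars are group medians, with knockout (KO) left of wildtype (WT) for females (F) and males (M). In the mitochondrial arm knockout males lie at -0.34 to -0.18 and wildtype males at -0.01 to 0.03.

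Among the transcription factors of the ATF4 arm, Atf4 itself (ENSMUSG00000042406.9, chromosome 15, 80139385 to 80141742 on GRCm39, as all positions given with gene identifiers) rose in both sexes by about the same amount. Its levels were 968, 817, 953, 811 and 837 in knockout females, against 728, 648, 659, 736 and 845 in wildtype females, a log2 change of 0.28 ± 0.08 (limma adjusted p = 0.046). Mouse wt_f_144, at 845, was above 3 of the knockouts, so the groups overlapped. In knockout males it had 675, 739.5, 623, 763 and 745, against 552, 596, 640.2, 602 and 604 in wildtype males, a log2 change of 0.24 ± 0.07 (limma adjusted p = 0.034). Of the knockouts, only ko_m_127 lay below a wildtype male. The female call was lost without any one of ko_f_95, ko_f_151, ko_f_154, ko_f_155, wt_f_140, wt_f_141, wt_f_142 or wt_f_143 (adjusted p up to 0.12) and missed the threshold in edgeR (0.052), with TMM scaling (0.054) and with first libraries only (0.051). The male call was lost without ko_m_106, ko_m_128, ko_m_130, wt_m_112, wt_m_113, wt_m_125 or wt_m_139 (up to 0.086), of which wt_m_112 has high Myl7.

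The other regulators did not pass in either sex. Ddit3, which encodes the ATF4 partner and pro-apoptotic factor CHOP, had a log2 change of 0.18 ± 0.10 in females, and 146 ± 13.8 in knockout males, against 119 ± 17.8 in wildtype males (log2 0.31 ± 0.11, limma adjusted p = 0.067). Trib3, a pseudokinase induced by ATF4 and CHOP that feeds back on them, had 31.6 ± 3.49 in knockout females, against 34.0 ± 9.67 in wildtype females, and 28.2 ± 6.04 in knockout males, against 31.5 ± 5.07 in wildtype males. Atf5, which is known to drive mitochondrial chaperones under stress, had log2 changes of -0.06 ± 0.08 in females and 0.12 ± 0.13 in males.

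Chac1, which degrades glutathione and is among the most responsive ATF4 targets, had the largest change of the members in females (ENSMUSG00000027313.4, chromosome 2, 119181710 to 119184862). Knockout females had 38.6, 20.7, 41.7, 67 and 67.9, against 11.6, 15.6, 22.9, 18.7 and 7.42 in wildtype females, a log2 change of 1.54 ± 0.33 (limma adjusted p = 0.01) on 417 reads in knockouts and 150 in wildtypes. Mouse ko_f_150 was below the highest wildtype and the other 4 knockouts were above all wildtypes. The call held whichever mouse was left out, while without the 3 females of high Myl7 the change was 1.14 with adjusted p = 0.063. In knockout males it had 29.6, 66.8, 33.9, 28.7 and 40, against 24.7, 20, 14.3, 16.4 and 44.3 in wildtype males, which did not pass (log2 0.75 ± 0.28, limma adjusted p = 0.083). Mouse wt_m_139 was above 4 of the 5 knockout males.

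Amino acid transporters held further rises. Slc3a2 encodes the heavy chain (CD98) that brings the light chains Slc7a5 and Slc7a11 to the cell surface (ENSMUSG00000010095.14, chromosome 19, 8684246 to 8700733). It had 412, 381, 448, 393 and 392 in knockout females, against 304, 317, 284, 307 and 342 in wildtype females, a log2 change of 0.38 ± 0.07 (limma adjusted p = 0.0032) that held without any one mouse. Every knockout female was above every wildtype female. Knockout males had 281, 334, 269.6, 283 and 299.5, against 279, 245, 275, 264 and 292 in wildtype males, with overlapping groups and a change of 0.11 ± 0.08 (adjusted p = 0.36).

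Slc7a5, the LAT1 carrier of leucine and other large amino acids, rose in males (ENSMUSG00000040010.11, chromosome 8, 122607889 to 122634433). It had 53.9, 84.1, 53.8, 40.8 and 33.6 in knockout males, against 30.2, 32.3, 28.3, 31.8 and 32.2 in wildtype males, a log2 change of 0.70 ± 0.19 (limma adjusted p = 0.019). The knockout males spread from 33.6 to 84.1 but all were above the wildtypes. With only the first library of each mouse the adjusted p was 0.072. In females 74.4, 42.8, 87.2, 62.7 and 69.3 in knockouts, against 46.6, 36.4, 43.1, 47.3 and 51.4 in wildtypes, gave 0.54 ± 0.17 and missed the threshold in limma (adjusted p = 0.054), while edgeR (0.042), DESeq2 (0.017) and limma on first libraries (0.023) passed it. Mouse ko_f_150 was again the low knockout. Slc7a11, the cystine carrier, had 17.2 ± 2.79 in knockout females, against 16.9 ± 3.65 in wildtype females, and 12.6 ± 1.42 in knockout males, against 11.7 ± 1.96 in wildtype males.

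Among the members of amino acid synthesis and one-carbon metabolism limma called none higher in either sex and Shmt2 lower in males. Shmt2, the mitochondrial enzyme that passes a carbon of serine to folate, fell in males (ENSMUSG00000025403.6, chromosome 10, 127352992 to 127358313). Knockout males had 298, 255, 232, 254 and 277, against 298, 309.9, 325, 339 and 379.5 in wildtype males, a log2 change of -0.33 ± 0.09 (limma adjusted p = 0.016), and the call held without any one mouse. The highest knockout, ko_m_97, was just below the lowest wildtype, wt_m_112, so the groups did not overlap. Knockout females had 334, 317, 322, 318 and 361, against 424, 435, 347, 391 and 353 in wildtype females (-0.23 ± 0.08, adjusted p = 0.067 by limma and 0.046 by DESeq2). Mthfd2, a further enzyme of the mitochondrial folate pathway, had a change of the opposite sign that did not pass, with 30.2 ± 13.2 in knockout females, against 16.4 ± 6.52 in wildtype females (0.80 ± 0.37, adjusted p = 0.19), and 17.8 ± 3.51 in knockout males, against 12.7 ± 3.07 in wildtype males (0.47 ± 0.20, adjusted p = 0.14). Of 2 enzymes of that pathway that are not members, Mthfd1l had 48.2 ± 12.9 in knockout females, against 30.2 ± 11.7 in wildtype females (0.71 ± 0.27, adjusted p = 0.11), and rose in males to 42.7 ± 7.70, against 27 ± 8.61 in wildtype males (0.67 ± 0.19, limma adjusted p = 0.024). That call was lost without ko_m_97, wt_m_113, wt_m_124 or wt_m_125 (up to 0.066). Aldh1l2 had changes of -0.38 ± 0.19 in females and -0.65 ± 0.27 in males and was not called. Both were named after their values were seen.

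Asns, asparagine synthetase, had 34.2 ± 10.8 in knockout females, against 22.3 ± 5.52 in wildtype females (0.58 ± 0.21, adjusted p = 0.098), and 20.8 ± 5.21 in knockout males, against 18.9 ± 2.47 in wildtype males. In the serine pathway, Phgdh, its first enzyme, had 21.6 ± 3.64 in knockout males, against 15.5 ± 3.01 in wildtype males, without overlap but without passing (0.46 ± 0.17, adjusted p = 0.089). Psat1 and Psph, the next enzymes of that pathway, had changes of 0.22 ± 0.30 and -0.01 ± 0.09 in females and -0.28 ± 0.17 and -0.22 ± 0.10 in males. For the proline enzymes Aldh18a1 and Pycr1 the changes were 0.27 ± 0.23 and 0.57 ± 0.27 in females and 0.34 ± 0.12 and 0.59 ± 0.25 in males. The group means of Asns, Phgdh, Psat1, Mthfd2 and Pycr1 were low, from 8.33 (Pycr1 in wildtype males, below the filter of 10) to 34.2.

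Gdf15, a secreted factor that acts on the brainstem to lower appetite and is used as a marker of mitochondrial and cardiac stress, rose in males (ENSMUSG00000038508.8, chromosome 8, 71082043 to 71085106). Knockout males had 13.7, 25.3, 31.2, 24.8 and 36.6, against 9.59, 8.45, 10.3, 10.9 and 6.23 in wildtype males, a log2 change of 1.39 ± 0.24 (limma adjusted p = 0.001) on 289 reads in knockouts and 97 in wildtypes. Every knockout male was above every wildtype male. The gene passed the filter through the knockouts, since the wildtype mean was 9.09 ± 1.84. The highest value was in ko_m_130, the mouse with Alb, and without it the change was 1.26 (adjusted p = 0.0036). In females the groups overlapped, with 19.1, 13.5, 36.3, 22.8 and 18.1 in knockouts, against 21.4, 17.1, 20.1, 27.4 and 55.2 in wildtypes (-0.29 ± 0.31, adjusted p = 0.60). The 2 highest females were ko_f_151 and wt_f_144, both of high Myl7.

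Sesn2 and Ddit4, which restrain the growth kinase complex mTORC1, did not pass. Sesn2 had 28.9 ± 5.79 in knockout females, against 29.6 ± 2.47 in wildtype females, and 27.7 ± 5.79 in knockout males, against 25.7 ± 6.21 in wildtype males. Ddit4 varied widely within groups, from 210.2 to 461 in knockout females, against 85.4 to 369 in wildtype females (0.79 ± 0.31, adjusted p = 0.13), and from 74.3 to 173 in knockout males, against 78 to 254 in wildtype males (-0.25 ± 0.27, adjusted p = 0.59).

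**Figure D3:**
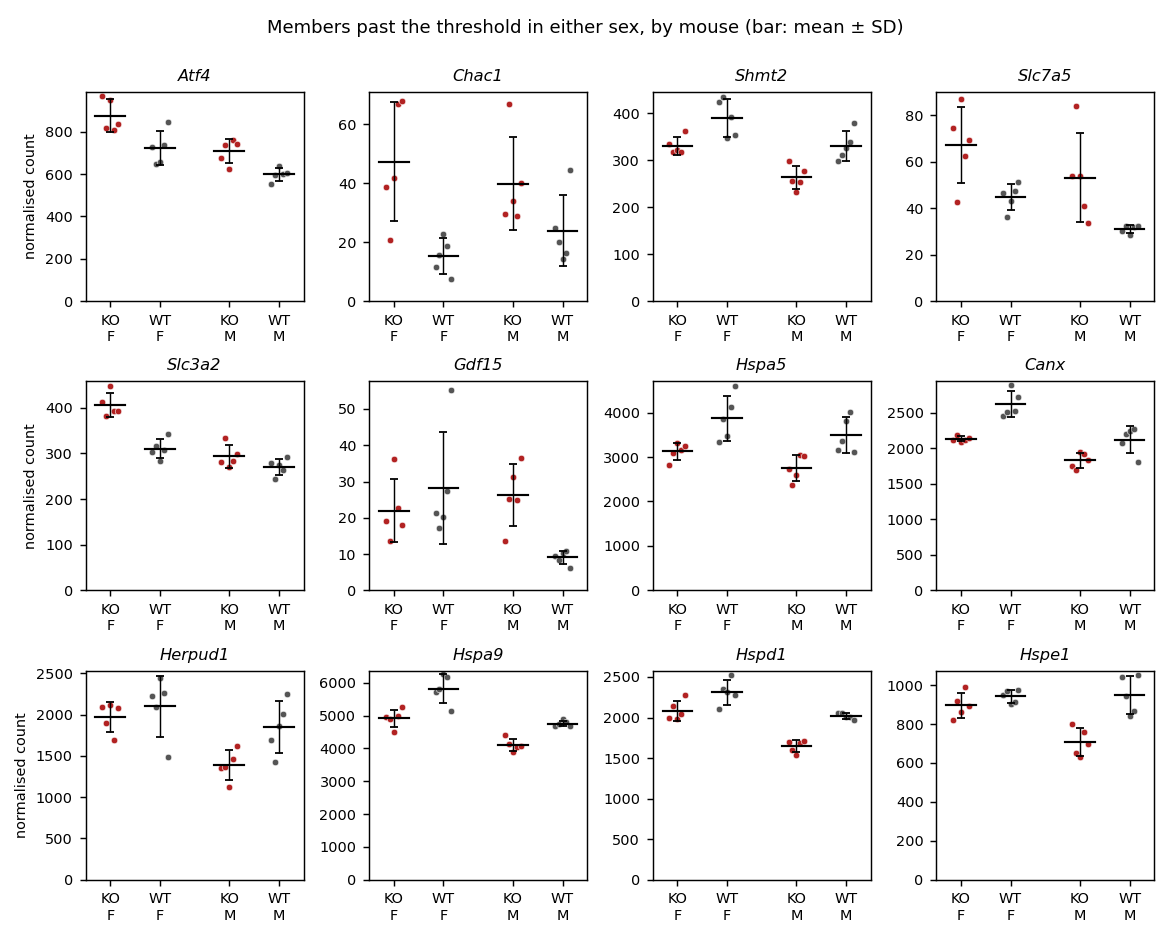
Normalised counts of the 12 members called in either sex, 1 point per mouse, with the mean and SD of each group of 5; knockout (KO, red) stands left of wildtype (WT, grey) for females (F) and males (M), and every axis starts at 0. Gdf15 in males (13.7 to 36.6 in knockouts and 6.23 to 10.9 in wildtypes) and Canx in females (2089.9 to 2190 in knockouts and 2459.7 to 2883 in wildtypes) are examples without overlap. In males Gdf15 passed the filter on low means through the knockouts.

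In the ER arm the chaperone Hspa5 (BiP), the usual readout of the unfolded protein response, was lower in knockouts of both sexes (ENSMUSG00000026864.14, chromosome 2, 34661982 to 34667559). Its levels were 2816, 3101, 3309, 3168 and 3246 in knockout females, against 3327, 3847, 3479, 4121 and 4593 in wildtype females, a log2 change of -0.30 ± 0.09 (limma adjusted p = 0.043). Knockout males had 2732, 2359.8, 2599, 3037 and 3029.6, against 3161, 3352, 3811, 4016 and 3118 in wildtype males, a change of -0.34 ± 0.09 (adjusted p = 0.023). In each sex all knockouts were below all wildtypes, by small margins at the nearest mice. The female call remained only without wt_f_140 or wt_f_142 (adjusted p up to 0.10 without one of the others) and was 0.088 without the mice of high Myl7 and 0.050 in edgeR, and the male call was lost without ko_m_106, wt_m_124 or wt_m_125 (up to 0.064).

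Canx, the membrane lectin chaperone calnexin, fell in females with little spread (ENSMUSG00000020368.16, chromosome 11, 50184788 to 50216500). Knockout females had 2122, 2190, 2089.9, 2118 and 2147, against 2459.7, 2512, 2883, 2526 and 2727 in wildtype females, a log2 change of -0.29 ± 0.06 (limma adjusted p = 0.006), which held without any one mouse. The lowest wildtype was well above the highest knockout. Knockout males had 1746, 1687, 1943, 1926 and 1841, against 2073, 2199, 2243, 2276 and 1805 in wildtype males, and did not pass in limma (-0.21 ± 0.08, adjusted p = 0.084), while DESeq2 called it (0.039). Mouse wt_m_139 was the exception among wildtype males, below 3 of the knockouts.

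Herpud1, a membrane protein that gathers the machinery of ER-associated degradation, fell in males (ENSMUSG00000031770.17, chromosome 8, 95113066 to 95122005). Knockout males had 1354, 1367, 1123, 1459 and 1621, against 1694, 1422, 1865, 2008 and 2246 in wildtype males, a log2 change of -0.41 ± 0.12 (limma adjusted p = 0.028). The groups overlapped through wt_m_113. The call was lost without ko_m_97, ko_m_106, ko_m_127, wt_m_124, wt_m_125 or wt_m_139, with adjusted p up to 0.071. Females had 2087, 1899, 2114, 1691 and 2079 in knockouts, against 2225, 2086, 2444, 2257 and 1485 in wildtypes (-0.07 ± 0.12, adjusted p = 0.75).

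The remaining 8 ER members did not pass in either sex. The lumenal chaperones Hsp90b1 (GRP94) and Calr, which with Hspa5 and Canx make up much of the ER folding capacity, had changes of -0.07 ± 0.08 and -0.07 ± 0.07 in females and -0.09 ± 0.08 and -0.17 ± 0.08 in males. For the disulfide isomerases Pdia3, Pdia4 and Pdia6 they were -0.07 ± 0.08, 0.09 ± 0.13 and -0.22 ± 0.08 in females and -0.13 ± 0.07, -0.06 ± 0.10 and -0.14 ± 0.09 in males. Xbp1, counted as a whole gene and not by splice form, had 629 ± 57.9 in knockout females, against 666 ± 98.6 in wildtype females, and 549.8 ± 52.7 in knockout males, against 551 ± 68.5 in wildtype males. Its target Dnajb9, a J-protein that holds IRE1 in check, had 442 ± 19.6 in knockout females, against 430.2 ± 15.6 in wildtype females, and 378 ± 29.8 in knockout males, against 374 ± 14.9 in wildtype males. Sdf2l1, an ER partner of J-proteins, had changes of -0.05 ± 0.16 in females and -0.04 ± 0.19 in males. The 5 members with the ER element in their window had changes from -0.30 to -0.07 in females and from -0.34 to -0.09 in males, and 2 of them passed in females and 1 in males. ER members without it had changes from -0.08 to 0.09 in females and from -0.41 (Herpud1, called) to 0.01 in males. The lower and upper quartiles over all genes were -0.13 and 0.13 in females and -0.15 and 0.14 in males. A link between the element and these changes was not tested.

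In the mitochondrial arm Hspa9, the mitochondrial HSP70 (mortalin) that pulls precursors through the inner membrane, fell in both sexes (ENSMUSG00000024359.11, chromosome 18, 35070467 to 35087410). It had 4950.1, 4887, 4511, 4990.3 and 5249 in knockout females, against 5709, 5807, 6252, 6164 and 5154 in wildtype females, a log2 change of -0.24 ± 0.07 (limma adjusted p = 0.041). Mouse wt_f_144 was below the highest knockout, ko_f_155. Knockout males had 4406, 4121, 3881, 4049 and 4069.5, against 4675, 4748, 4889.9, 4797 and 4682 in wildtype males, without overlap (-0.21 ± 0.07, adjusted p = 0.041). The female call remained only without ko_f_155 or wt_f_144 (up to 0.099 without one of the others), and the male call only without ko_m_97 (up to 0.095). Without the females of high Myl7 the limma adjusted p was 0.055, and without wt_m_112, the male of high Myl7, it was 0.066.

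Hspd1 and Hspe1, the HSP60 chamber and its HSP10 lid, are neighbours in head-to-head orientation whose annotated spans overlap at their starts (Hspd1 ENSMUSG00000025980.15, chromosome 1, 55116994 to 55127402; Hspe1 ENSMUSG00000073676.5, chromosome 1, 55127291 to 55130466). Hspd1 had 1697, 1601, 1543, 1682 and 1710.3 in knockout males, against 2049.9, 2050.3, 2004, 2007 and 1975 in wildtype males, a log2 change of -0.29 ± 0.06 (limma adjusted p = 0.0038). Hspe1 had 798, 650.2, 633, 757 and 699 in knockout males, against 1041, 942, 839, 869 and 1054 in wildtype males, a change of -0.42 ± 0.09 (adjusted p = 0.0037). Neither gene's male groups overlapped, and both calls held without any one mouse. In females Hspd1 had 1995, 2139, 1976, 2038 and 2273 in knockouts, against 2099.6, 2347, 2311, 2530.1 and 2278 in wildtypes (-0.15 ± 0.06, adjusted p = 0.16). Hspe1 had 819.7, 921, 861, 988 and 895 in knockout females, against 948, 972, 905, 914 and 977 in wildtype females (-0.08 ± 0.06, adjusted p = 0.47). In both genes the female groups overlapped.

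Lonp1, the ATP-dependent protease of the matrix, did not pass, with 935 ± 71.3 in knockout females, against 946 ± 37.8 in wildtype females, and 774 ± 52.5 in knockout males, against 809.8 ± 24.4 in wildtype males. Cardiomyocyte markers in males had changes from -0.44 (Myh6) to 0.17 (Actc1), none called by limma. Mitochondrially encoded transcripts took 27 ± 3.23% of reads in knockout females, against 31 ± 2.51% in wildtype females, and 31.1 ± 3.12% in knockout males, against 32.2 ± 3.16% in wildtype males. The part of either in the chaperone changes was not tested. The tables list 1 pseudogene copy of Hspa9, 3 of Hspd1 and 4 of Hspe1, and how reads shared by copies or by the overlapping ends were counted is not given in the sources used here, so these 3 levels are uncertain to that extent.

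The authors' deposited exon tables list bins of these genes whose share of the gene differed between genotypes, as judged by their own DEXSeq test with libraries as columns. Libraries of the same mouse are separate columns there, so its p-values do not rest on mice as replicates. No test of the bins by mouse was run. Every listed bin has an unadjusted p no higher than 0.05. The shares that follow are therefore of listed bins with an adjusted p, and not of all the members' bins. At an adjusted p under 0.05 the female table held 1 of 21 members' listed bins (4.76%), where all listed bins had 6.09%. The male table held 11 of 66 (16.7%), where all listed bins had 11.6%. All 11 male bins were in the mitochondrial arm: 7 in Hspa9, 2 in Hspd1, 1 in Hspe1 and 1 in Lonp1. Beyond the bin numbers, their position within the gene is not known here. The Hspa9 bins were numbers 19 to 24 and 26, those of Hspd1 were 1 and 11, and those of Hspe1 and Lonp1 were each number 1.

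The share of each of the 7 Hspa9 bins was higher in knockout males. These bins were picked by the authors' test and are shares of the same gene total, so they are not independent of each other. In bin 19 the mean normalised level was 278 in both groups of males, while the gene's total was lower in knockouts. Bin 20, with the smallest adjusted p in the authors' deposited table (1.6e-05), held 3.10 ± 0.26 reads per 100 gene reads in knockout males, against 2.39 ± 0.20 in wildtype males. Mouse wt_m_139 had the lowest share of all 10 males in each of the 7 bins, and without it the mean share was still higher in knockouts in all 7. In Hspd1, bin 1 held 20.3 ± 2.37 reads per 100 in knockout males, against 24.5 ± 2.86 in wildtype males, and bin 11 held 11.8 ± 0.59 in knockout males, against 10.1 ± 1.13 in wildtype males. Mean normalised levels were 335 in knockout males and 493 in wildtype males for bin 1, and 195 and 204 for bin 11. The same wt_m_139 had the highest share of all males in bin 1 (29.2) and the lowest in bin 11 (8.31), and the highest in the Lonp1 bin (13.8). The female bin was bin 15 of Herpud1, a minor one, with 0.513 ± 0.238 reads per 100 in knockout females, against 0.122 ± 0.085 in wildtype females (adjusted p = 0.0018 in the authors' deposited table).

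Whether the knockout effect differed between males and females was tested as an interaction over 12651 genes (males minus females). No gene was called by limma (0%) or edgeR, 1031 genes had an unadjusted p under 0.05, and DESeq2 called 49 of 12646 (0.387%). Of the 34 members 4 had an unadjusted p under 0.05. Gdf15 had a difference of 1.69 ± 0.41 on the log2 scale (p = 0.00046, limma adjusted p = 0.19) and was the member that DESeq2 called (adjusted p = 0.026). The others were Hspe1 (-0.35 ± 0.11, limma adjusted p = 0.29), Slc3a2 (-0.27 ± 0.10, 0.40) and Ddit4 (-1.04 ± 0.45, 0.54). A call in one sex only, as for Chac1, Canx, Herpud1, Shmt2 or Hspd1, is therefore not shown to differ between the sexes.

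Among 19 sensors and eIF2 factors limma called 2 lower in females, and 2 lower and 1 higher in males, beside 5.51% and 8.29% of all genes lower and 7.60% higher in males. The lower ones were Oma1 and Dele1 in both sexes, and the higher one was Mbtps2. Oma1, the inner membrane protease that cuts DELE1 under stress, had 271, 254, 271, 256 and 329 in knockout females, against 341, 367, 360.1, 371 and 340.1 in wildtype females (-0.37 ± 0.07, limma adjusted p = 0.0073). In knockout males it had 252, 234, 232, 275 and 282, against 321, 334, 317, 331 and 307 in wildtype males (-0.34 ± 0.07, adjusted p = 0.0053). The knockouts were below the wildtypes in both sexes, the calls held without any one mouse, and with only first libraries the male adjusted p was 0.14.

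Dele1, whose cleaved product activates the eIF2 kinase HRI, had 965, 987, 949, 949 and 1081 in knockout females, against 1319, 1284, 1185, 1396 and 1094 in wildtype females (-0.34 ± 0.07, limma adjusted p = 0.0082). Knockout males had 859, 708, 767, 885 and 945, against 933, 1010.5, 1113, 1114 and 1126 in wildtype males (-0.35 ± 0.09, adjusted p = 0.012). The female groups were just apart, the calls held without any one mouse, and the male groups overlapped through ko_m_130 and wt_m_112. HRI itself, Eif2ak1, had 219 ± 26 in knockout females, against 222 ± 12.9 in wildtype females, and 188 ± 17.3 in knockout males, against 185 ± 19.2 in wildtype males. The ER kinase gene Eif2ak3 and the sensor genes Ern1 and Atf6 were not called by limma in either sex, while DESeq2 called Atf6 higher in males (0.24 ± 0.09 by limma, adjusted p = 0.081 by limma and 0.036 by DESeq2). Mbtps2, the site-2 protease that frees ATF6, rose in males to 109 ± 4.13, against 80.2 ± 10.6 in wildtype males (0.45 ± 0.10, adjusted p = 0.0054).

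Of 16 tested ATF4 targets and partners beside the members, 2 rose and 1 fell in females, and 6 rose and 1 fell in males. Over all genes, 5.28% rose and 5.51% fell in females, and 7.60% rose and 8.29% fell in males. Nupr1, a small stress-induced regulator of transcription, rose in both sexes, with 93.0 ± 20.8 in knockout females, against 51.5 ± 15 in wildtype females (0.85 ± 0.19, limma adjusted p = 0.011), and 71.8 ± 12.6 in knockout males, against 47.5 ± 7.98 in wildtype males (0.59 ± 0.14, adjusted p = 0.009). Slc1a5, a glutamine carrier, rose in females, with 361 ± 76.7 in knockouts, against 224 ± 69.8 in wildtypes (0.72 ± 0.20, adjusted p = 0.037). Got1, the cytosolic aspartate aminotransferase, fell in both sexes, to 4140.5 ± 435 in knockout females, against 5081 ± 342 in wildtype females (-0.30 ± 0.08, adjusted p = 0.030), and to 3380.4 ± 607 in knockout males, against 4470.2 ± 134 in wildtype males (-0.42 ± 0.10, adjusted p = 0.012). In males Rcan1, a regulator of calcineurin, had 749, 1342, 806, 736 and 1741 in knockouts, against 418, 377, 383, 392 and 419 in wildtypes (1.34 ± 0.20, adjusted p = 0.00028). Female Rcan1 did not pass, with 728 ± 131 in knockouts, against 683 ± 274 in wildtypes (0.16 ± 0.22, limma adjusted p = 0.7). The amino acid carrier Slc38a2 rose in males by 0.41 ± 0.11 (adjusted p = 0.022). The calls were lost for Slc1a5 without ko_f_150, ko_f_151, ko_f_154, wt_f_141, wt_f_143 or wt_f_144 (adjusted p up to 0.091) and without the mice of high Myl7 (0.22), for Got1 in females without ko_f_95, ko_f_150, ko_f_154, wt_f_141, wt_f_142 or wt_f_143 (0.075) and without those of high Myl7 (0.079) and for Slc38a2 without wt_m_112 or wt_m_113 (0.060).

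Aminoacyl-tRNA synthetases, many of which are ATF4 targets, mostly did not pass: limma called 1 of 20 higher in females and 2 in males, beside 5.28% and 7.60% of all genes. DESeq2 called 2 higher in females. Lars, which charges the leucine tRNA, had 994, 679.7, 739, 901 and 828 in knockout females, against 493, 509, 522, 487 and 521 in wildtype females (0.70 ± 0.09, limma adjusted p = 0.00046). Knockout males had 681, 957, 593, 617 and 784, against 433, 439, 428, 453 and 452 in wildtype males (0.70 ± 0.11, adjusted p = 0.00048). All knockouts were above all wildtypes in both sexes. Nars, for asparagine, rose in males to 725 ± 29.3, against 608 ± 26.9 in wildtype males (0.25 ± 0.06, adjusted p = 0.011, and 0.059 with first libraries only). Among 21 other ER chaperones and genes of ER-associated degradation, limma called none in either sex, with 2 higher at an unadjusted p under 0.05 in females and 3 higher in males. edgeR also called none, and DESeq2 called 2 higher in males.

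Of 12 other mitochondrial chaperones and proteases 4 fell in females, where 5.51% of all genes fell, and 6 fell in males, where 8.29% did, and limma called none higher in either sex. The others did not pass, with changes from -0.26 to 0.08 in females and from -0.24 to 0.13 in males. Clpx, the unfoldase of the ClpXP protease, fell to 607 ± 29.7 in knockout females, against 768 ± 90.8 in wildtype females (-0.33 ± 0.08, limma adjusted p = 0.019), and to 522 ± 48.1 in knockout males, against 702 ± 79.2 in wildtype males (-0.42 ± 0.09, adjusted p = 0.0044). Dnaja3, a J-protein partner of Hspa9, fell to 906 ± 67.1 in knockout females, against 1170.3 ± 117 in wildtype females, and to 828 ± 75.8 in knockout males, against 983 ± 26.5 in wildtype males. Afg3l2, of the inner membrane m-AAA protease, fell by 0.38 ± 0.07 on the log2 scale in females (adjusted p = 0.0031) and by 0.19 ± 0.06 in males (0.038). Grpel1, the nucleotide exchange factor of Hspa9, fell in females (-0.24 ± 0.06, adjusted p = 0.023), and Hscb, a J-protein of iron-sulphur cluster assembly, fell in males (-0.35 ± 0.10, adjusted p = 0.028). In males the calls were lost for Dnaja3 without ko_m_106, ko_m_127, wt_m_112, wt_m_113 or wt_m_124, for Afg3l2 without ko_m_97, ko_m_106, ko_m_128, wt_m_112, wt_m_113, wt_m_124 or wt_m_125 and for Hscb without ko_m_97, ko_m_106, ko_m_127, wt_m_112, wt_m_113 or wt_m_139, and in females for Grpel1 without ko_f_95, ko_f_151, wt_f_140 or wt_f_141 (adjusted p up to 0.061, 0.090, 0.068 and 0.065 in that order). With first libraries only, adjusted p was 0.051 for Clpx and 0.12 for Grpel1 in females, and 0.11 for Afg3l2 and 0.16 for Hscb in males. With the high-Myl7 mice left out, it was 0.074 for Grpel1 in females. In males, where this leaves out only wt_m_112, it was 0.072 for Afg3l2, 0.057 for Dnaja3 and 0.068 for Hscb.

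**Figure D4:**
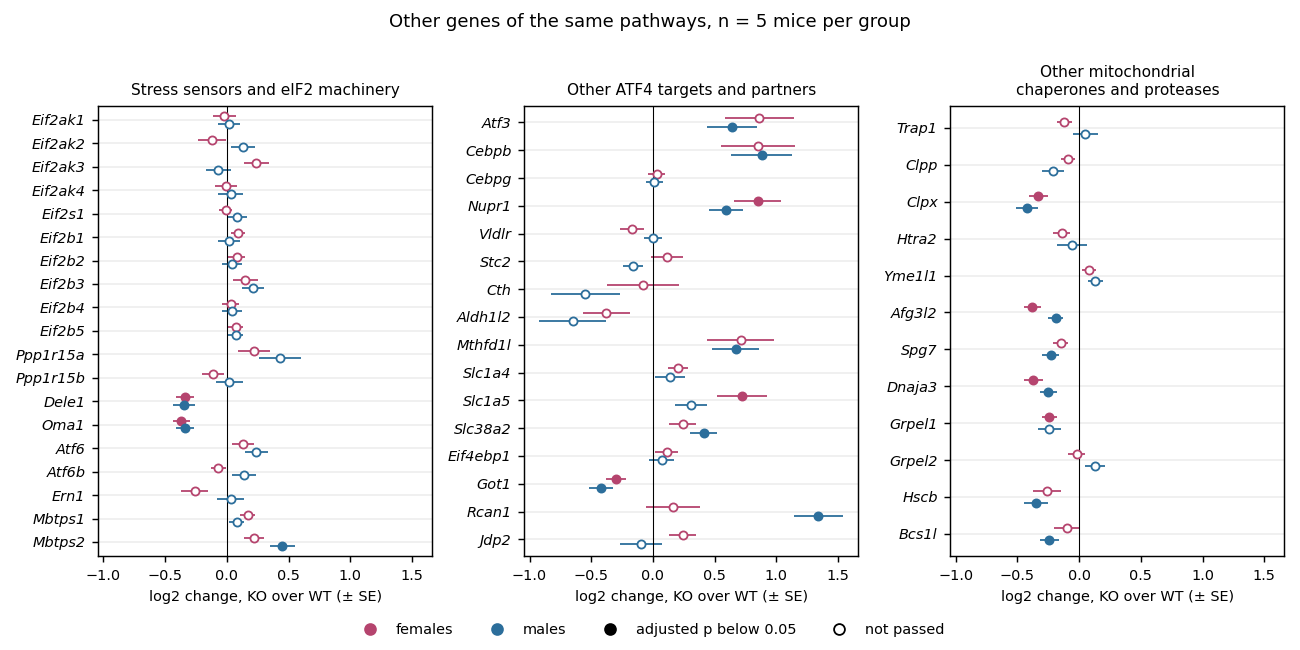
Log2 change, knockout over wildtype, of other tested genes of the same pathways in females and males, with bars of 1 SE (n = 5 mice per group) and filled points past an adjusted p of 0.05. Oma1 and Dele1 lie between -0.37 and -0.34 in both sexes, Nupr1 at 0.85 and 0.59, and Rcan1 at 1.34 in males.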

How the data were processed

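RNA was extracted with TRI Reagent and sequenced on a BGISEQ-500, per the labels. Reads were aligned with STAR 2.7.10a to GRCm39 and genes tested with DESeq2, per the submitters' processing notes; the counting program and annotation are not given in the sources used here. The deposited gene tables hold, per library, a signal: read counts the authors divided by a size factor. All values were whole multiples of 1 read's worth to a tolerance of 1e-06, and reads were recovered for edgeR 4.0.16 and DESeq2 1.42.0 as alternatives. Raw counts for exon bins, with the authors' DEXSeq p-values, fill the deposited exon tables, where every listed bin has an unadjusted p no higher than 0.05. The log2 fold changes and adjusted p of the authors' gene tables, computed over libraries, gave another alternative.

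Of 40 labelled libraries 39 were used, and ko_f_154 had 1; 1 column of per-sample values matched no label and was not used. Replicates were mice: 19 library pairs of the same mouse had a chi-square of 1.07 to 1.84 per degree of freedom, and 152 pairs of different mice 2.77 to 32.6. limma 3.58.1 (R 4.3.3) compared the mean of each mouse as log2(value + 1), two-sided, with a trend of variance on mean, for genes with a mean of at least 10, with Benjamini-Hochberg adjustment over all genes tested and a threshold of 0.05. edgeR was the first choice for counts; limma was used because the tables are normalized. The script was tested on simulated data. The alternatives were a pseudocount of 10, no filter, TMM scaling, both count tools, first libraries only, each mouse left out, the authors' table and, chosen after seeing the data, leaving out the 4 mice with Myl7 of at least 500.

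Members called in either sex are given by mouse; of each pathway list up to 4 called genes with the smallest p in each sex are named. The members and lists were chosen with earlier results of these data known. Promoter sequences are from RefSeq (GRCm38.p6). Levels were not compared between the sexes, whose tables were scaled separately.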

Additional observations from a re-analysis of the deposited data

Results flagged for a closer look

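A mouse that stood far from the other 4 of its group, by the gap to its nearest neighbour relative to the range, was found in 6 of 136 groups of 5 examined for the 34 tested members, where chance gives about 1 in 20. Asns was 52.8 in ko_f_151, with 25.5 to 33.3 in the other knockout females, and Xbp1 was 729 in the same mouse, with 584 to 624 in the others. In wt_f_144 Gdf15 was 55.2 (17.1 to 27.4 in the other wildtype females), Pdia4 was 391 (224 to 258) and Pdia6 was 851 (653 to 709.5). Calr was 2685 in ko_m_106, with 2138 to 2247 in the other knockout males. Mice ko_f_151 and wt_f_144 are also 2 of the 4 mice with Myl7 of at least 500, and ko_f_151 had the highest Igkc and Ighm of the females, at 175 and 343. None of these 6 genes was called in the sex of the mouse that stood apart.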

How the results depend on the processing

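No paired analysis was possible because the labels give each mouse a number of its own, so no number is shared between groups. The rise of 3 ATF4 members in females became 7 in the authors' table, and the absence of falls became 1 fall there and by DESeq2. The fall of 2 ER members in females became 1 without the filter, by edgeR and without the mice of high Myl7. The fall of 1 mitochondrial member in females became 0 without the filter and without those mice, and 2 in the authors' table. In males the rise of 3 ATF4 members became 8, and the fall of 2 ER members 5, in the authors' table, whose columns are libraries. That table called 13 of the 34 tested members in females and 17 in males, against 6 and 9 by limma. Its share of calls over all genes was not counted, so these larger numbers are not shown to be particular to the members. The difference between the sexes had 1 member called by DESeq2 and 0 otherwise. Leaving out 1 mouse gave 2 to 6 rises and 0 to 1 falls in the female ATF4 arm (6 rises without ko_f_150, 5 without wt_f_144, and the fall without wt_f_142 or wt_f_144), 1 to 2 falls in the female ER arm, 0 to 1 in the female mitochondrial arm, 2 to 4 rises in the male ATF4 arm, 0 to 2 falls in the male ER arm and 2 to 3 in the male mitochondrial arm. No member changed sign past the threshold under any alternative run; the cause of the other moves was not tested. Of the called members 3 of 6 in females and 5 of 9 in males kept the call whichever mouse was left out. The same share was not counted over all called genes. Members with under 450 summed reads in some group, Fgf21, Pycr1, Gdf15, Slc7a11, Mthfd2, Chac1, Phgdh, Asns, Psat1, Sesn2, Trib3, Slc7a5 and Sdf2l1, are the least precise.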
